A study of Mus musculus with 12 samples.

Results

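The proteasome genes of the mouse thyroid were taken as every row of the gene table whose symbol is Psm, a letter from a to g and a number, which gave 48 of 55536 genes. They encode the subunits of the 20S core and of the 19S regulatory particle, the proteasome activators, a regulator named PI31 and the chaperones that help to build the particles. RNA from whole thyroid was sequenced from 12 mice, with 1 library per mouse. The 5 affected mice (library code TCW) were B6NTac mice, that is, C57BL/6N mice from Taconic, with thyroid dysplasia. The 7 unaffected mice were 6 B6NCrl mice from Charles River (CRW) and mouse 14 (TCK), a knockout mouse from Taconic without dysplasia. The knocked-out gene of mouse 14, the LINE-1 genotype at *Tg* (the thyroglobulin gene) of each mouse, and the sex and age are not in the labels. All affected mice were B6NTac and all but 1 of the unaffected mice were B6NCrl, so a difference between the substrains and a difference between the phenotypes cannot be told apart, except as far as mouse 14 allows.

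The proteasome is the protease that degrades proteins marked with ubiquitin in the cytosol and nucleus. Its 20S core is a barrel of alpha and beta rings, and 3 beta subunits of each inner ring carry the catalytic sites. The 19S particle sits on the ends of the barrel, where its lid takes ubiquitin off the substrate and its ring of ATPases unfolds the substrate and feeds it in. Secreted proteins such as thyroglobulin that fail to fold in the endoplasmic reticulum are moved back to the cytosol by the ATPase VCP and degraded by the proteasome. In cells of the immune system, and in other cells exposed to interferon, a different set of catalytic subunits makes the immunoproteasome, which favours peptides for MHC class I.

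The deposited estimated counts summed to between 11434901 and 23319948 per mouse. Mouse 14 had the lowest total, and the next lowest was 18103710. The list of 7 thyroid follicle cell genes summed to 101075 to 256271 CPM in the affected and 210787 to 304395 CPM in the unaffected mice, where CPM is the count scaled to a library total of 1000000. RNA of neighbouring tissues differed widely between the mice. A list of 5 skeletal muscle genes summed to 9.91 to 19800 CPM in the affected and 1.13 to 9344 CPM in the unaffected mice, with the highest value in affected mouse 6. The 10 T cell genes summed to 50 CPM or more in affected mice 1 and 3 (57.2 and 63.3 CPM) and in unaffected mice 14 and 21 (349 and 349 CPM), and to at most 6.29 CPM in the other 8 mice. In bulk tissue, fewer cells of a type and less RNA per cell cannot be told apart. The 7 B cell genes reached 122 CPM in affected mouse 1 and at most 10.3 CPM in the other mice. The 4 fat genes reached 1308 CPM in the same mouse and at most 521 CPM elsewhere, and the 3 parathyroid genes were at 29.4 CPM in affected mouse 4 and between 1803 and 4309 CPM elsewhere.

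Most proteasome genes lay somewhat above the unaffected level in the affected thyroids, and the immunoproteasome subunits lay below it. Of the 48 genes, 46 passed the filter on low counts and entered edgeR's quasi-likelihood test, with adjustment over all 19661 genes tested and a threshold of 0.05. *Psma8* and *Psmb11* did not pass the filter. Of the 46, 8 rose (*Psmb5*, *Psmd7*, *Psmd11*, *Psme3*, *Psma6*, *Psmc1*, *Psma3* and *Psmc4*), 1 fell (*Psmb10*) and 37 did not pass the test. Among all genes tested, 7.63% were called higher and 6.1% lower, against 17.4% of the tested proteasome genes called higher. The log2 fold change of affected over unaffected mice was above 0 in 36 of the 46, with a median of 0.19. Over all genes tested the median was 0.00519, and 50.8% of them were above 0. The rises were small, from 0.34 for *Psmc4* to 0.46 for *Psmb5*, which are 1.26-fold and 1.37-fold. The adjusted p of *Psmd11* (edgeR, 0.0498) and of *Psmb5* (0.0481) lay just inside the threshold, and those of *Psmb2* (0.0541) and *Psmb1* (0.0573) just outside it.

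**Figure D1:**
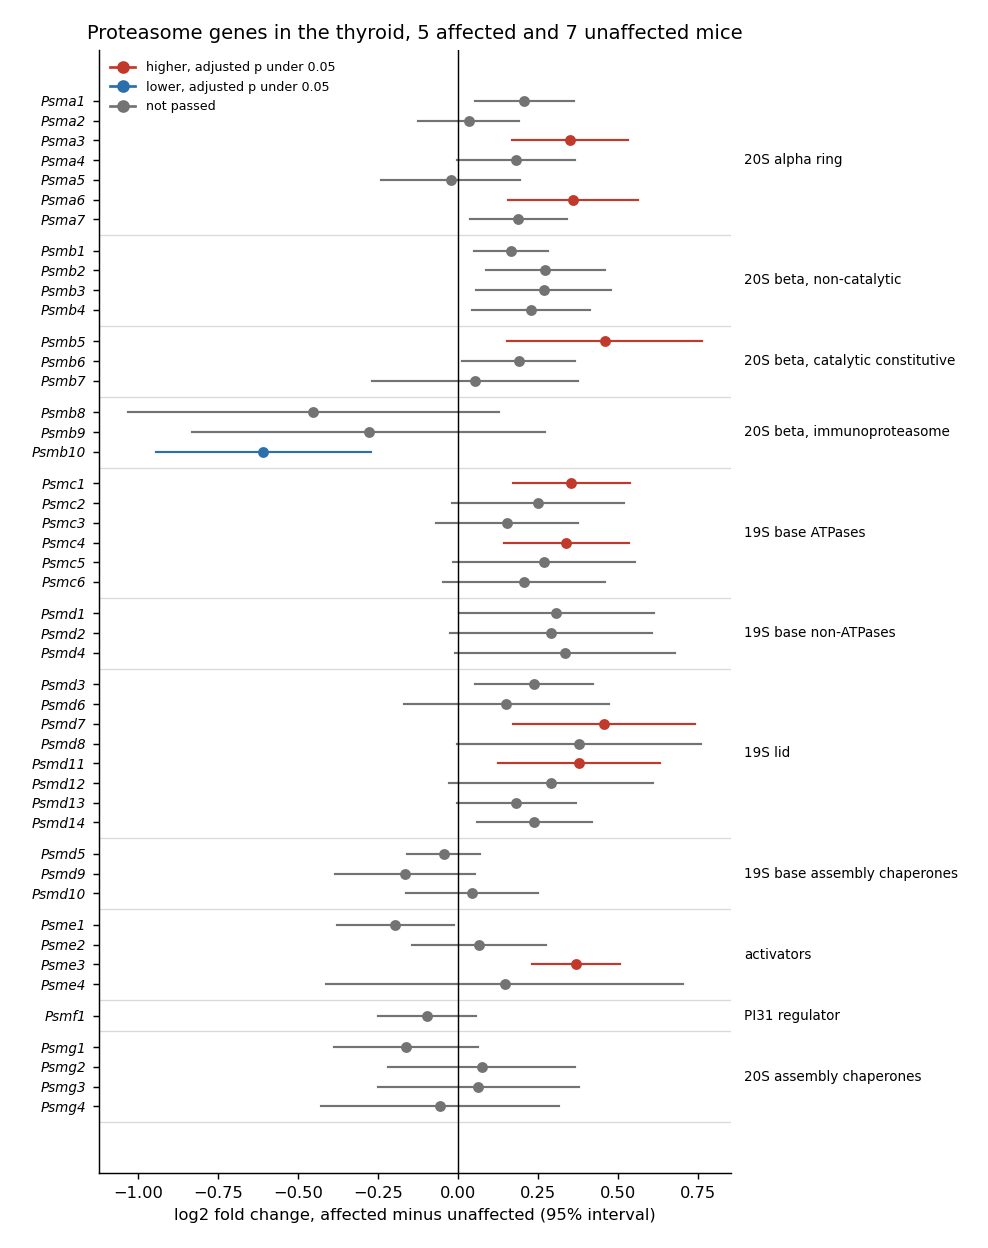
Log2 fold change of affected over unaffected mice for the 46 tested proteasome genes, grouped by the role named at the right, with 95% intervals from edgeR's quasi-likelihood fit. Red marks the 8 genes called higher and blue *Psmb10*, the 1 gene called lower. The 17 points of the 19S particle all lie to the right of 0 and the 3 immunoproteasome points all lie to the left.

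The count of called genes depended on which mice entered the fit, while the direction of the median did not. Leaving out 1 mouse at a time gave between 3 and 13 proteasome genes called higher, with 13 without affected mouse 4 and 3 without affected mouse 5, without affected mouse 6 or without unaffected mouse 26. Without unaffected mouse 21 the number was 4. It was 5 without affected mouse 3, without mouse 14 or without unaffected mouse 24. Of all genes tested, 1872 of 19958 were called higher without affected mouse 4. The counts were 1002 of 19954 without affected mouse 5, 1662 of 19998 without affected mouse 6 and 1102 of 19568 without unaffected mouse 26. They were 1252 of 19471 without unaffected mouse 21 and 1099 of 19867 without affected mouse 3. Without mouse 14 they were 1196 of 19494, and without unaffected mouse 24 they were 1229 of 19558. Without mice 14 and 21, the mice with the most T cell RNA among the unaffected, *Psma3* and *Psme3* were called higher (5.61% of all genes tested were). Without the 4 mice in which the T cell list reached 50 CPM, edgeR called 0 of the 46 and 3.43% of all genes tested higher. At an unadjusted p under 0.05, 11 of the 46 were higher, and the share of all genes at that p is not given here. That fit compared 3 affected with 5 unaffected mice, and the median of the 46 genes was 0.23. DESeq2 was run on all 12 mice and called 11 of the 46 and 2046 of all 19661 genes tested higher. *Psma3* and *Psme3* passed in every fit that left out 1 mouse, as did *Psmc1*.

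Affected mice lay above every unaffected mouse, without overlap, in 5 of the 46 genes (*Psma3*, *Psmb1*, *Psmc1*, *Psmc4* and *Psme3*), and below every unaffected mouse in 0. The same held for 3.78% and 3.36% of all genes tested. Set against the mean of the unaffected mice, the median over the 46 genes was 0.11, 0.11, 0.062, 0.15 and 0.45 on the log2 scale in affected mice 1, 3, 4, 5 and 6. In the unaffected mice it ran from -0.19 in mouse 24 to 0.14 in mouse 22. Affected mice 5 and 6 stood above all unaffected mice, and affected mice 1, 3 and 4 lay inside the unaffected range.

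Levels of the subunits were compared per transcript length, as FPKM (fragments per kilobase of transcript, scaled to the library size). In the unaffected mice, the means of the 14 genes of the standard 20S core ran from 13.8 FPKM for *Psma2* to 53.5 FPKM for *Psma3*, with a median of 29.5. The 17 genes of the 19S particle spanned a narrower range, 17.3 to 35.0 FPKM, with a median of 21.8. Immunoproteasome subunits were lower, at 11.6 FPKM for *Psmb8*, 7.47 for *Psmb10* and 4.08 for *Psmb9*. The 4 chaperones of 20S assembly, which are not part of the finished particle, lay between 2.99 and 5.53 FPKM, and the 3 chaperones of the 19S base between 4.94 and 7.51 FPKM. Of the 48 genes, 22 carry the table's mark of a confounded gene, one that lies over another annotated gene. In GENCODE M21, exons of 13 of the 48 are overlapped by exons of another gene, 3 of them on the same strand. Whether the counting used strand is not stated.

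In the alpha ring, which forms the gate of the barrel, 2 of the 7 genes rose. *Psma6* (chr12:55384222-55418454, plus strand in GRCm38) was at 59.6, 50.2, 47.8, 58.1 and 63.0 CPM in affected mice 1, 3, 4, 5 and 6, in that order here and below. The unaffected mice ranged from 36.6 to 48.3 CPM with a median of 46.3. Only affected mouse 4 lay within the unaffected range, and the difference passed the test (edgeR, log2 fold change 0.36, SE 0.094, adjusted p = 0.0245). The call was lost in 9 of the 28 alternative fits, among them those without affected mouse 1, 5 or 6 or unaffected mouse 26, where the edgeR adjusted p was 0.0523, 0.0623, 0.0507 and 0.0502. *Psma3* had the highest FPKM of all 48 genes. It was at 64.8, 67.5, 70.2, 71.3 and 79.3 CPM in the affected mice and at 47.6 to 64.1 CPM in the unaffected mice, median 56.8, with no overlap (edgeR, log2 fold change 0.35, SE 0.084, adjusted p = 0.0160), and lost its call in 2 of the 28. The other 5 did not pass, from -0.023 for *Psma5* to 0.21 for *Psma1*. The 95% interval of *Psma2* ran from -0.12 to 0.19 and that of *Psma5* from -0.24 to 0.19.

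The beta subunits without a catalytic site, *Psmb1*, *Psmb2*, *Psmb3* and *Psmb4*, lay at log2 fold changes of 0.17, 0.27, 0.27 and 0.23. None of the 4 passed at the adjusted threshold in edgeR, and DESeq2 called *Psmb1* and *Psmb2* higher. All 4 had an unadjusted p under 0.05 in edgeR, as did 5711 of the 19661 genes tested. *Psmb1* was at 51.1, 51.8, 53.0, 53.5 and 59.1 CPM in the affected mice and at 45.3 to 50.1 CPM in the unaffected mice, median 48.3. The lowest affected mouse stood just above the highest unaffected mouse.

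Of the 3 catalytic subunits of the standard core, *Psmb5* rose and the other 2 did not pass. *Psmb5* (chr14:54614119-54618022, minus strand), which carries the chymotrypsin-like site, was at 26.2, 25.0, 16.9, 26.6 and 29.1 CPM in the affected mice and 14.4 to 22.8 CPM in the unaffected mice, median 17.3. Affected mouse 4 lay below the unaffected median and the other 4 lay above the highest unaffected mouse (edgeR, log2 fold change 0.46, SE 0.14, adjusted p = 0.0481). The call was lost in 21 of the 28 alternative fits, including 9 of the 12 that left out 1 mouse, with log2 fold changes of 0.32 to 0.59 over all 28. *Psmb6*, which carries the caspase-like site, was at 34.2, 32.9, 31.8, 33.7 and 39.6 CPM in the affected mice and 25.6 to 32.9 CPM, median 31.5, in the unaffected mice. The groups overlapped (log2 fold change 0.19, SE 0.082, adjusted p = 0.147 in edgeR). *Psmb7*, which carries the trypsin-like site, was at 41.5, 32.4, 31.5, 37.7 and 60.1 CPM in the affected mice. Its unaffected range was 33.3 to 44.3 CPM with a median of 39.9, so that affected mouse 6 stood above all others and affected mice 3 and 4 below all others. The 95% interval of its log2 fold change was -0.27 to 0.37.

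The 3 immunoproteasome subunits that replace them, *Psmb8* for *Psmb5*, *Psmb9* for *Psmb6* and *Psmb10* for *Psmb7*, all had log2 fold changes below 0, and *Psmb10* passed the test. *Psmb10* (chr8:105935735-105938444, minus strand) was at 6.33, 5.15, 5.16, 4.66 and 4.02 CPM in the affected mice and 6.00 to 10.9 CPM in the unaffected mice, median 7.46. Affected mouse 1 alone reached into the unaffected range (edgeR, log2 fold change -0.61, SE 0.16, adjusted p = 0.0221). Without the 4 mice with most T cell RNA it still passed (log2 fold change -0.60, edgeR adjusted p = 0.0428). It missed the threshold without mice 14 and 21 (edgeR adjusted p = 0.0546), without affected mouse 5 (0.0592), with library totals without TMM factors (0.0561) and in the 3 fits on log2 FPKM, where the limma adjusted p lay between 0.132 and 0.253.

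*Psmb8* (chr17:34197721-34201454, plus strand) was at 14.9, 11.96, 8.30, 8.58 and 6.61 CPM in the affected mice and 9.32 to 22.8 CPM, median 11.6, in the unaffected mice. In each group its 2 highest values were those of the mice with the most T cell RNA, affected mice 1 and 3 and unaffected mice 14 and 21. The difference did not pass (edgeR, log2 fold change -0.45, SE 0.27, adjusted p = 0.289, 95% interval -1.03 to 0.13). With the T cell list as a covariate it passed narrowly, at a log2 fold change of -0.35 (edgeR adjusted p = 0.0498), and without the 4 mice it did not (-0.47, edgeR adjusted p = 0.0960). Without mice 14 and 21 the log2 fold change was -0.11. *Psmb9* (chr17:34181987-34187764, minus strand), whose first exons overlap those of *Tap1* on the other strand, was at 7.86, 5.02, 3.40, 4.14 and 4.07 CPM in the affected and 3.97 to 10.1 CPM in the unaffected mice, median 5.56. The highest value of each group was that of affected mouse 1 and unaffected mouse 21 (log2 fold change -0.28, SE 0.25, adjusted p = 0.509 in edgeR, 95% interval -0.83 to 0.27).

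**Figure D2:**
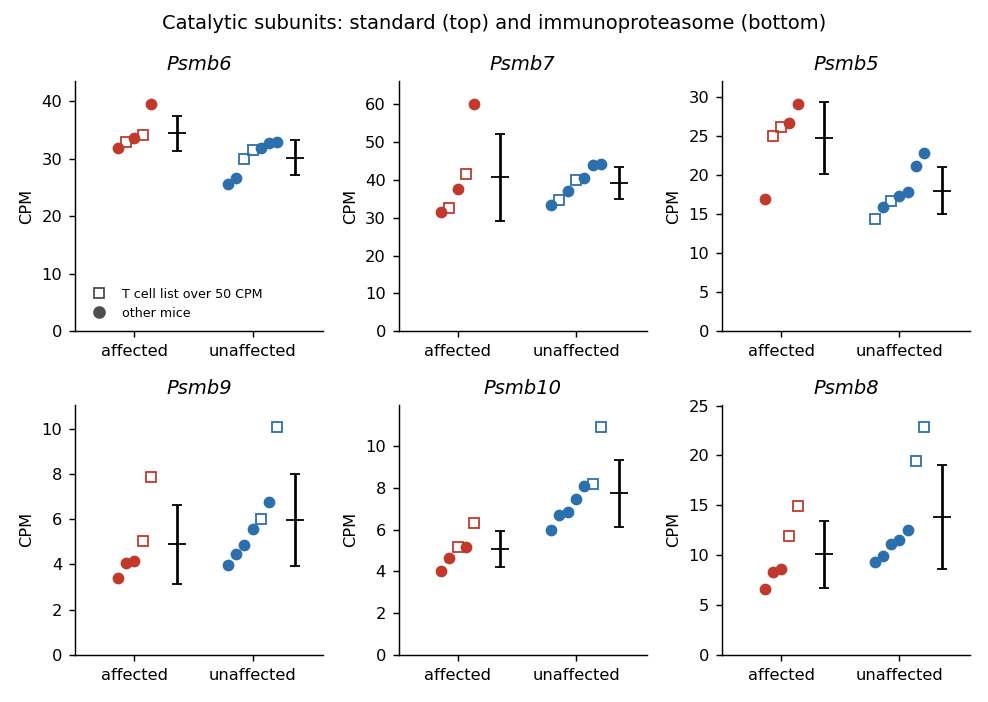
CPM of the catalytic subunits in each mouse, with each immunoproteasome subunit under the standard subunit it replaces, red for affected and blue for unaffected mice, and black bars for the mean and SD of each group. Open squares are the 4 mice in which the T cell list reached 50 CPM. In *Psmb8* they are the 2 highest points of each group.

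RNA of the 2 kinds of catalytic subunit was compared as the FPKM of each immunoproteasome subunit per 100 FPKM of the standard subunit it replaces. These are ratios of RNA in bulk tissue, and the balance of assembled cores was not measured. *Psmb8* per 100 *Psmb5* was 41.4, 32.8, 36.8, 25.2 and 16.2 in the affected mice and 30.6 to 101, median 47.7 in the unaffected mice. Affected mice 5 and 6 lay below every unaffected mouse, and the difference did not pass over the 3 ratios (log2 difference -0.93, exact permutation p = 0.0227, adjusted over the 3 ratios p = 0.0682). For *Psmb9* per 100 *Psmb6* the values were 10.8, 6.59, 5.66, 6.22 and 4.98 in the affected mice and 6.70 to 16.2, median 10.9 in the unaffected mice (log2 difference -0.61, exact permutation p = 0.0505, adjusted over the 3 ratios p = 0.0758). *Psmb10* per 100 *Psmb7* was 20.3, 18.8, 19.5, 16.4 and 9.15 in the affected mice and 16.3 to 37.3, median 24.4 in the unaffected mice, where affected mouse 6 stood lowest of all 12 (log2 difference -0.53, exact permutation p = 0.0783, adjusted over the 3 ratios p = 0.0783). All tests were two-sided, and 0.00126 is the smallest p that splits of 5 against 7 mice allow. All 3 ratios were lower in the affected mice by log2 0.5 or more, and none passed. Without unaffected mouse 22 all 3 passed, at an exact permutation adjusted p = 0.00649 for *Psmb8* to *Psmb5* and 0.0433 for the other 2. They also did without unaffected mouse 25 (each 0.0476), and the first 2 passed without affected mouse 1 (each 0.0364), all from the exact permutation test. Without the 4 mice with most T cell RNA the log2 differences were -0.82, -0.68 and -0.56.

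*Psmb11* (chr14:54621433-54629556, plus strand), the catalytic subunit of cortical thymic epithelium and the neighbour of *Psmb5*, was counted 58 times in mouse 14 and 128 times in mouse 21. The next highest were 14 counts in unaffected mouse 23 and 8.03 in affected mouse 3, and no other mouse had more than 2. Mice 14 and 21 also had the highest sums of the list of 5 thymic epithelium genes, of which *Psmb11* is 1, at 81.9 and 158 CPM against 17.4 to 35.8 CPM in the other 10 mice. *Psma8*, the alpha subunit of male germ cells, had at most 8 counts in any mouse and 0 in mouse 14, where a count of 0 allows up to 3 counts. Neither gene was tested.

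In the 19S particle, all 17 genes had log2 fold changes above 0, with a median of 0.29, and 4 rose. With library totals without *Tg*, and without affected mouse 6, 16 of the 17 were above 0 and *Psmd6* was at -0.00350 and -0.011. The base ATPases *Psmc1* and *Psmc4* were called, without overlap between the groups. *Psmc1* was at 38.4 to 48.1 CPM in the unaffected mice and 50.2 to 67.7 CPM in the affected mice (edgeR, log2 fold change 0.35, SE 0.085, adjusted p = 0.0164). *Psmc4* was at 23.1 to 31.7 and 32.6 to 42.1 CPM in the same order (edgeR, log2 fold change 0.34, SE 0.090, adjusted p = 0.0267). The call of *Psmc1* was lost in 2 of the 28 alternative fits and that of *Psmc4* in 8. For *Psmc4* they included the fits without affected mouse 5 (edgeR adjusted p = 0.0561), affected mouse 6 (0.0566), unaffected mouse 21 (0.0501) and unaffected mouse 26 (0.0536). The other 4 ATPases lay between 0.15 for *Psmc3* and 0.27 for *Psmc5* and did not pass. The scaffold subunits of the base *Psmd1* and *Psmd2* and the ubiquitin receptor *Psmd4* had log2 fold changes of 0.31, 0.29 and 0.33, and none of the 3 passed.

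Of the 8 lid subunits, *Psmd7* and *Psmd11* rose. *Psmd7* (chr8:107580381-107588464, minus strand), the partner of the deubiquitinase *Psmd14*, was at 42.5, 41.9, 41.2, 42.4 and 59.5 CPM in the affected mice and 27.1 to 42.1 CPM, median 34.1, in the unaffected mice. Affected mice 3 and 4 lay just under unaffected mouse 22, the highest of its group (edgeR, log2 fold change 0.46, SE 0.13, adjusted p = 0.0367). *Psmd11* (chr11:80428615-80473248, plus strand) was at 81.7, 81.4, 80.2, 82.7 and 113 CPM in the affected mice and 57.3 to 80.3 CPM, median 67.3, in the unaffected mice. Apart from affected mouse 6 the affected values were close together, and affected mouse 4 lay just under unaffected mouse 25 (edgeR, log2 fold change 0.38, SE 0.12, adjusted p = 0.0498). The call of *Psmd11* was lost in 18 of the 28 alternative fits and that of *Psmd7* in 10, including 9 and 7 of the 12 that left out 1 mouse. The other lid genes ran from 0.15 for *Psmd6* to 0.38 for *Psmd8*, and *Psmd14* itself was at 0.24 (edgeR adjusted p = 0.0766). The 3 chaperones of the base, *Psmd5*, *Psmd9* and *Psmd10*, showed -0.045, -0.16 and 0.043. The 95% interval of *Psmd5*, -0.16 to 0.069, lay wholly below the rise measured for any of the 8 called genes.

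Many of the 19S genes varied among the unaffected mice together with the skeletal muscle RNA in the sample, though none passed after adjustment. Within the 7 unaffected mice, Pearson's r between CPM and the summed CPM of the muscle list was above 0.9 for 13 of the 46 genes, against 3.31% of all genes tested. Of the 13, 11 belong to the 19S particle, 1 (*Psma3*) to the core and 1 is the activator *Psme4*. The lowest r among the 17 genes of the 19S particle was 0.20, for *Psmd13*. None of the 46 passed by r or by rho after adjustment over all genes tested. The smallest adjusted p was 0.05001 (exact permutation of 7 mice, two-sided, 1.98e-04 the smallest unadjusted p possible). At an unadjusted p under 0.05 there were 21 of the 46 by r and 19 by rho, and the share of all genes at that p is not given here. For *Psmc6*, r was 0.97 (exact permutation p = 1.98e-04) and Spearman's rho 1.00 (exact permutation p = 3.97e-04), and r was 0.91 without mice 22 and 25, which are farthest from the median of the list. For *Psmd4* the values were r = 0.99 (exact permutation p = 9.92e-04, adjusted 0.0796), rho = 0.89 (p = 0.0123) and r = 0.98 without the 2 mice. Of the 13 genes, 5 kept r above 0.9 without these mice and 8 did not, and the lowest r was 0.65, for *Psmd12*.

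Of the 5 muscle genes, 0 differed between the groups in edgeR, 0 had an unadjusted p under 0.05 and 0 passed in DESeq2. Their log2 fold changes ran from 0.24 to 0.66, all above 0, with SEs of 1.72 to 1.95 in edgeR. With SEs of that size, the test cannot show that muscle RNA was equal in the groups. Affected mouse 6 had the most muscle RNA of the 12. Relative to the unaffected mean, the median of the 17 genes of the 19S particle was 0.16, 0.15, 0.10, 0.19 and 0.69 on the log2 scale in the affected mice. Among the unaffected mice it went from -0.26 in mouse 24 to 0.24 in mouse 22. With the muscle list as a covariate, edgeR called 15 of the 46 proteasome genes higher and 7.74% of all genes. The 15 included all 8 called without it and also *Psma1*, *Psmb1*, *Psmb2*, *Psmc2*, *Psmd3*, *Psmd4* and *Psmd14*. Without affected mouse 6 and unaffected mice 22 and 25, in which the list exceeded 5000 CPM, 6 were called higher. In that fit 1112 of all 19701 genes tested were called higher, and the median of the 46 was 0.17. The part of muscle RNA in the difference of the 19S genes was not tested.

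**Figure D3:**
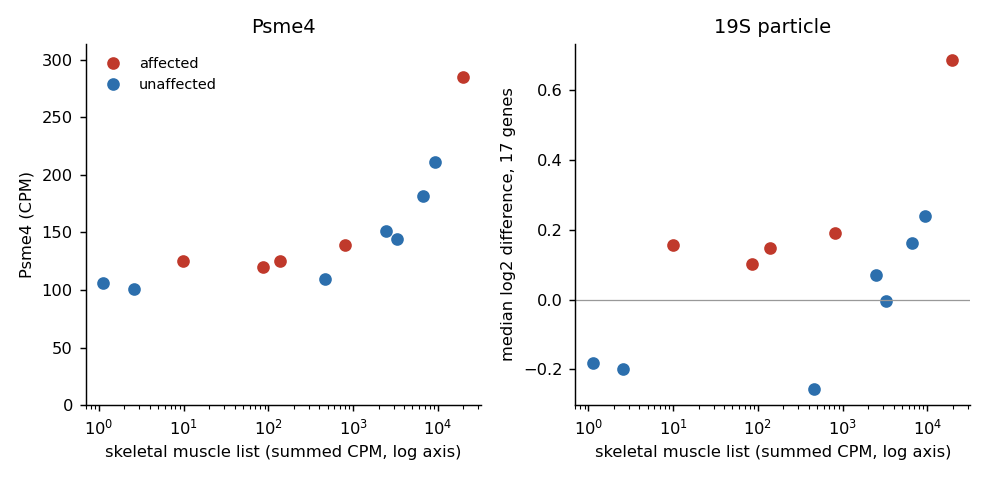
Summed CPM of the 5 skeletal muscle genes on a log axis against CPM of *Psme4* (left) and against the median over the 17 genes of the 19S particle of the log2 difference from the unaffected mean (right), 1 point per mouse. *Psme4* is highest, at 285 CPM, in affected mouse 6, the mouse with most muscle RNA. On the right, affected mouse 6 is the highest point, at 0.69.

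The activators open the core without ATP, and they did not move together. *Psme3* (chr11:101316213-101323537, plus strand), the nuclear activator PA28-gamma, had the smallest adjusted p of the 46 genes. It was at 56.1, 52.8, 54.6, 49.6 and 53.0 CPM in the affected mice and 35.5 to 46.1 CPM, median 41.3, in the unaffected mice. The lowest affected mouse stood above the highest unaffected mouse (edgeR, log2 fold change 0.37, SE 0.064, adjusted p = 0.00274). The call was lost in 3 of the 28 alternative fits, none of which left out a single mouse. *Psme1* (chr14:55578123-55581529, plus strand), a subunit of the interferon-inducible activator PA28, was at 32.3, 32.0, 41.8, 33.7 and 30.1 CPM in the affected and 36.5 to 44.1 CPM in the unaffected mice, median 38.0. All affected mice except mouse 4 lay below every unaffected mouse, and the test did not pass (edgeR, log2 fold change -0.20, SE 0.084, adjusted p = 0.144). Without affected mouse 4 it did, at a log2 fold change of -0.26 (edgeR adjusted p = 0.0176). Its partner subunit *Psme2* was at 22.4, 20.3, 15.6, 19.5 and 20.6 CPM in the affected mice and 16.7 to 22.0 CPM in the unaffected mice, median 18.3, with overlap (log2 fold change 0.065, SE 0.097, adjusted p = 0.707 in edgeR). *Psme4*, the activator PA200, had the highest CPM of the 48 genes, 125, 126, 120.1, 139 and 285 in the affected mice and 101 to 212, median 145, in the unaffected mice. It was highest in affected mouse 6 and unaffected mice 22 and 25, the 3 mice with most muscle RNA, and the log2 fold change of 0.15 had a 95% interval of -0.41 to 0.70. Without affected mouse 6 it was -0.17.

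*Psmf1*, which encodes the regulator PI31, was at 24.5, 29.4, 31.7, 29.1 and 27.2 CPM in the affected mice and 28.6 to 34.0 CPM, median 30.5, in the unaffected mice (edgeR, log2 fold change -0.097, SE 0.071, adjusted p = 0.400). The chaperones *Psmg1* and *Psmg2*, which pair to assemble the alpha ring, were low. *Psmg1* was at 4.89, 5.11, 4.23, 5.13 and 4.73 CPM in the affected and 4.70 to 6.498 CPM in the unaffected mice, median 5.35. For *Psmg2* the values were 5.28, 5.72, 4.59, 5.43 and 7.65 CPM and 4.53 to 6.38 CPM, median 5.52. The pair *Psmg3* and *Psmg4* acts at the same step. *Psmg3* was at 3.23, 3.64, 3.56, 3.32 and 3.03 CPM in the affected mice and 2.38 to 4.42 CPM, median 3.14, in the unaffected mice. *Psmg4* was at 2.36, 2.04, 1.39, 1.77 and 2.37 CPM and 1.64 to 2.59 CPM, median 1.98. In all 5 genes the groups overlapped, the log2 fold changes ran from -0.16 to 0.073, and none passed.

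A shift between transcripts of a gene would change the transcript length that the count and the FPKM value imply together. For the 39 proteasome genes with at least 100 counts in every mouse, the implied mean lengths of the groups differed by a median of 1.22% and at most 5.57%. The groups overlapped in all 39, against 1.53% of all genes at that depth whose groups did not overlap.

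Because the subunits are known to be made in step, with the transcription factor NRF1 acting through antioxidant response elements, the promoters were read for short motifs. RefSeq promoters of GRCm38.p6, from 250 bases before to 50 bases after the start, were matched by symbol for 40 of the 48 genes, with 43 promoters. The core of the antioxidant response element, TGACNNNGC on either strand, was found in 6 of the 43 (14.0%), namely of *Psmb5*, *Psmb6*, *Psmc6*, *Psmd9*, *Psmd12* and *Psme4*, and in 12.4% of all 32851 promoters and 14.1% of the 15889 promoters of tested genes. Only *Psmb5* of these was called higher. The 5 stretches of 60 bases in which it lies before the start are shown because they are the candidate places of that element, on the strand of each gene with the motif in capitals, at chr14:54618009-54618068 (minus strand) for *Psmb5*, chr11:70525297-70525356 for *Psmb6*, chr14:45329574-45329633 for *Psmc6*, chr5:123228130-123228189 for *Psmd9* and chr11:107479278-107479337 for *Psmd12*, the last 4 on the plus strand.
Psmb5: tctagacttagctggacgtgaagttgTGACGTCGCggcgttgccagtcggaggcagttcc
Psmb6: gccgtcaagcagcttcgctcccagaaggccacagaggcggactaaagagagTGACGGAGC
Psmc6: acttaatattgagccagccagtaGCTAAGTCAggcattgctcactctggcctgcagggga
Psmd9: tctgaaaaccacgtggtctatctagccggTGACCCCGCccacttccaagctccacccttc
Psmd12: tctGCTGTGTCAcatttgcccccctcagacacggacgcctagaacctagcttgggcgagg
In *Psmb5* the motif starts 47 bases and in *Psmd9* 31 bases before the start, in *Psmb6* it ends at the last base before it, and in *Psmc6* and *Psmd12* it lies on the opposite strand 227 and 247 bases before it.

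The core of the interferon-stimulated response element, GAAANNGAAA, was found in 5 of the 43 promoters (11.6%, all promoters 3.44%, promoters of tested genes 3.12%), those of *Psmb3*, *Psmd4*, *Psmd9*, *Psme1* and *Psmg4*. No match lay in the windows of *Psmb8*, *Psmb9* and *Psmb10*, the subunits that interferon induces. The 3 matches before the start are shown the same way, at chr11:97703245-97703304 (plus strand) for *Psmb3*, chr3:95042661-95042720 (minus strand) for *Psmd4* and chr5:123228005-123228064 (plus strand) for *Psmd9*.
Psmb3: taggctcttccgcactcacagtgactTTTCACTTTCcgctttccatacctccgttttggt
Psmd4: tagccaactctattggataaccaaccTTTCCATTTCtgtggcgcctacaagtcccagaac
Psmd9: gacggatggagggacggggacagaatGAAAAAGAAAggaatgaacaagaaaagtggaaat
The endoplasmic reticulum stress element, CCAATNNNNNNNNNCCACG, was in 0 of the 43 promoters and in 0.119% of all promoters and 0.126% of those of tested genes. The core bound by C/EBP and ATF factors, TGATGNAA, was in that of *Psmd13* alone, which is 2.33% against 3.97% of all promoters and 2.37% of those of tested genes. CCAAT boxes, whose letters also open the stress element, were in 14 of the 43 (32.6%, all promoters 37.4%, promoters of tested genes 37.0%), among them those of the called genes *Psma3*, *Psma6*, *Psmc1* and *Psme3*.

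The genes that work around the proteasome were read in 6 lists, which share *Ddi2* and *Vcp* between 2 of them. For comparison with the counts below, 7.63% of all genes tested were called higher and 6.1% lower. Among 11 proteasome partners with other symbols, 3 rose, the ubiquitin receptor *Adrm1* (log2 fold change 0.47, SE 0.12, adjusted p = 0.0232), the deubiquitinase *Uchl5* that it binds (log2 fold change 0.33, SE 0.097, adjusted p = 0.0380) and the thioredoxin *Txnl1* (log2 fold change 0.32, SE 0.088, adjusted p = 0.0293), and 0 fell. The assembly chaperone *Pomp* was at 0.16 and the deubiquitinase *Usp14* at 0.14, neither past the threshold. Of 6 shuttle receptors, which carry ubiquitinated proteins to the proteasome, *Rad23b* (log2 fold change 0.40, SE 0.089, adjusted p = 0.0109) and *Ubqln1* (log2 fold change 0.24, SE 0.049, adjusted p = 0.00666) rose. Of 6 ubiquitin precursor and activating enzyme genes, *Ubb* rose (log2 fold change 0.44, SE 0.089, adjusted p = 0.00707). All p-values are from edgeR with adjustment over all genes tested.

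Against 7.63% of all genes tested called higher, 4 of 8 genes for the extraction of proteins from the endoplasmic reticulum rose. They were *Selenos*, an anchor for VCP in the membrane (log2 fold change 0.91, SE 0.10, adjusted p = 2.46e-04), *Vcp* itself (log2 fold change 0.59, SE 0.10, adjusted p = 0.00291), its adaptor *Nploc4* (log2 fold change 0.46, SE 0.12, adjusted p = 0.0200) and the membrane adaptor *Ubxn4* (log2 fold change 0.33, SE 0.069, adjusted p = 0.00798). *Vcp* was at 239, 308, 297, 313 and 353 CPM in the affected mice and 175 to 235 CPM, median 197, in the unaffected mice, without overlap. The 9 genes of the route of NRF1 went both ways. *Vcp* and the small MAF factor *Maff* rose (log2 fold change 0.70, SE 0.13, adjusted p = 0.00426), *Nfe2l3*, a relative of NRF1, fell (log2 fold change -0.63, SE 0.11, adjusted p = 0.00363), and *Nfe2l1*, which encodes NRF1, did not pass (log2 fold change 0.38, SE 0.17, adjusted p = 0.168). All these are edgeR values. Of 10 genes for the loading of MHC class I and the interferon response, 0 passed in edgeR at the adjusted threshold, 0 had an unadjusted p under 0.05 and 0 passed in DESeq2, and 8 of the 10 had log2 fold changes below 0, with a median of -0.092.

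**Figure D4:**
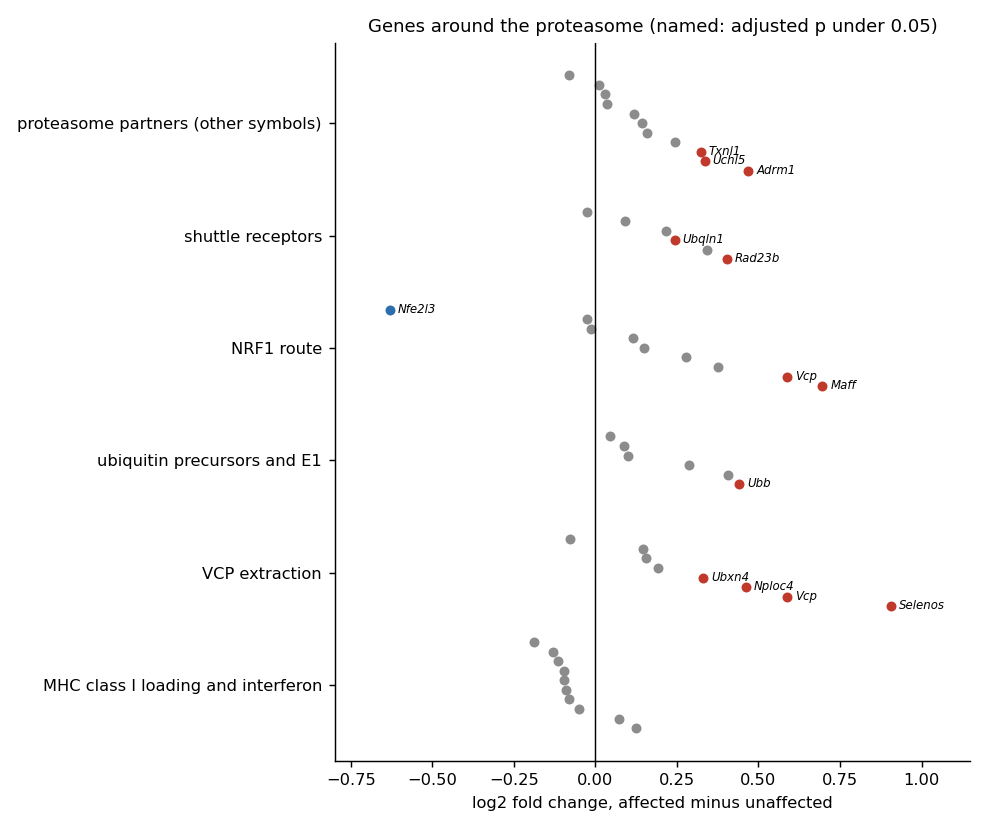
Log2 fold change of affected over unaffected mice for each gene of the 6 lists around the proteasome, 1 point per gene, red or blue with its name where the edgeR adjusted p is under 0.05 and grey where it is not. *Selenos* at 0.91 lies farthest to the right and *Nfe2l3* at -0.63 farthest to the left, and the 10 genes of MHC class I loading and interferon stay between -0.19 and 0.12.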

How the data were processed

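Thyroid RNA from 12 mice was read from the deposited gene tables. Per the labels and the paper's methods, ribosomal RNA was depleted (RiboErase) before KAPA RNA HyperPrep libraries were built, and genes were quantified in OmicSoft Array Studio on Ensembl's annotation of GRCm38. The authors deposited estimated counts per gene, which are not normalized, and FPKM values made from them. Estimated counts were rounded to whole numbers, filtered with filterByExpr (minimum count 10), scaled by TMM factors and fitted with edgeR 4.0.16 (quasi-likelihood, robust, in R 4.3.3) with group as the only term and Benjamini-Hochberg adjustment over 19661 genes and a threshold of 0.05. The standard error of a log2 fold change is its size over the square root of the F statistic. The table's replicates are separate mice. Ratios of FPKM were compared with exact two-sided permutation tests.

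The proteasome genes and all gene lists were chosen with earlier results of these data known. Per-mouse values are given for *Psmb5* to *Psmb11*, *Psma8*, the *Psme*, *Psmf* and *Psmg* genes, and the 5 largest increases and decreases among called genes. At most 4 genes per list are named for their change. *Psma3* and *Psmb1*, whose values per mouse are also given, and *Pomp*, *Usp14*, *Nfe2l1* and other members named beside them were chosen after their values were seen. 1 partner on a list, *Paaf1*, was not analysed here. Positions are those of the table and match GENCODE M21 for all 48 genes.

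Alternatives were DESeq2 1.42.0, other scalings and filters, only CRW controls, limma 3.58.1 on log2(FPKM + 1) and log2(FPKM + 0.1), for genes averaging 0.5 FPKM or more, or all genes, *Xist* as covariate and leaving out each mouse. Fits without the mice richest in *Psmb11*, T cell (50 CPM) or muscle RNA (5000 CPM), and with those lists as covariates, were added after seeing the data. The fit with only CRW controls and the fit without mouse 14 are the same fit, and both count among the 28 alternatives. Fold changes on log2(FPKM + pseudocount) understate changes of low genes.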

Additional observations from a re-analysis of the deposited data

Results flagged for a closer look

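In 12 of the 46 genes, affected mouse 6 stood apart from the other 4 affected mice by more of the group's range than Dixon's 95% critical value of 0.71 for 5 samples. Its CPM was 31.3 for *Psmb2*, 70.3 for *Psmc3*, 42.1 for *Psmc4*, 48.5 for *Psmc5*, 69.0 for *Psmc6*, 109 for *Psmd1*, 146 for *Psmd2*, 40.3 for *Psmd6*, 59.5 for *Psmd7*, 113 for *Psmd11*, 54.5 for *Psmd12* and 285 for *Psme4*. The other 4 affected mice were at 120.1 to 139 CPM for *Psme4*, 89.9 to 95.2 for *Psmd2*, 41.2 to 42.5 for *Psmd7* and 31.6 to 33.5 for *Psmd12*. Of the 12 genes, 10 belong to the 19S particle, 1 to the core and 1 is an activator. The same mouse had the most skeletal muscle RNA of the 12 mice, 19800 CPM for the list. Within the 7 unaffected mice, Pearson's r of these 12 genes with that list ran from 0.71 for *Psmc5* to 0.98 for *Psme4*. None of them passed after adjustment over all genes tested. Without affected mouse 6, 3 of the 46 proteasome genes were called higher in place of 8. Over all genes tested, 1662 of 19998 were called higher in that fit, against 1500 of 19661 with all mice. The number of proteasome genes was also 3 without affected mouse 5 and without unaffected mouse 26. In those fits 1002 of 19954 and 1102 of 19568 genes tested were called higher. The part of affected mouse 6 in the calls made with it was not tested further. The rule was applied to 98 groups of values, of which about 1 in 20, or 4.9, would stand out by chance, and 13 did.

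The FPKM of *Psmb9* per 100 FPKM of *Psmb6* stood apart in affected mouse 1, at 10.8 against 4.98 to 6.59 in the other 4 affected mice. That mouse alone had B cell RNA above 10.3 CPM, and its T cell list was at 57.2 CPM.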

How the results depend on the processing

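The median log2 fold change of the proteasome genes stayed above 0 in all 28 alternatives, from 0.048 with library totals without *Tg* to 0.25 without affected mouse 4. Totals without *Tg* moved the median of all genes to -0.13, and the proteasome genes lay 0.18 above that, against 0.18 with TMM factors. The count of genes called was less steady. Of 8 called higher, 2 remained called with totals without *Tg*, and 608 of all 19661 genes tested were called higher. With the 6 CRW mice as the only controls, 5 remained, and 1196 of 19494 genes were called higher. With limma on log2(FPKM + 1) without a filter, 3 remained, and 784 of 36954 genes were called higher. Without the mice with most *Psmb11*, 2 remained, and 1081 of 19261 genes were called higher. Without the 4 mice with most T cell RNA, 0 remained, and 676 of 19697 genes were called higher. With the muscle list as covariate, 15 proteasome genes and 1521 of 19661 genes tested were called higher. The count called lower was 0 with library totals without TMM factors, 0 in each of the 3 limma fits and 0 without the mice with most *Psmb11*, and 2 with the T cell list as covariate (*Psmb10* and *Psmb8*). Leaving out 1 mouse at a time gave 3 to 13 called higher, against 1002 to 1872 of all genes tested. It gave 0 to 2 called lower, against 746 to 1518 of all genes tested. The cause of these changes was not tested, except that fits without mice have fewer samples. Of named genes that were not called, the sign turned with totals without *Tg* for *Psmb7* (-0.11), *Psme2* (-0.074), *Psme4* (-0.022), *Psmg2* (-0.076) and *Psmg3* (-0.070), without the mice with most *Psmb11* for *Psmg4* (0.066), and without the mice with most muscle RNA for *Psmb7* (-0.041) and *Psmg2* (-0.035). Over the fits without 1 mouse, the log2 fold change ran from -0.12 to 0.15 for *Psmb7*, -0.17 to 0.29 for *Psme4*, -0.043 to 0.16 for *Psmg2* and -0.13 to 0.065 for *Psmg4*. The log2 differences of the 3 ratios kept their sign in the 16 alternatives run for them, and without 1 mouse they ran from -1.07 to -0.72 for *Psmb8* to *Psmb5*, -0.79 to -0.49 for *Psmb9* to *Psmb6* and -0.61 to -0.32 for *Psmb10* to *Psmb7*, past the threshold in the fits named beside them. No paired analysis was possible because the 2 groups share no replicate numbers. Depth limits the lowest genes most, and *Psmg4*, with 27 to 54 counts per mouse, had a 95% interval of -0.43 to 0.31.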

Other observations

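Macrophages are known to use the immunoproteasome, so their genes were read beside it. Of 7 macrophage genes, 3 were higher in the affected mice, *Cd68* (log2 fold change 0.98, SE 0.21, adjusted p = 0.0101), *Mrc1* (log2 fold change 0.74, SE 0.19, adjusted p = 0.0230) and *Csf1r* (log2 fold change 0.68, SE 0.21, adjusted p = 0.0481), all from edgeR, and all 7 had log2 fold changes above 0. Among all genes tested, 7.63% were called higher. The macrophage list summed to 152 to 243 CPM in the affected and 73.4 to 182 CPM in the unaffected mice. *Psmb8*, *Psmb9* and *Psmb10* had log2 fold changes below 0 between the same groups, and only *Psmb10* was called. Affected mouse 1 had the highest macrophage sum of the 12 mice, 243 CPM. Among the affected mice it also had the most *Psmb8*, *Psmb9* and *Psmb10*, at 14.9, 7.86 and 6.33 CPM. The relation between the macrophage list and these 3 genes was not tested. The T cell list was higher in 2 of the 7 unaffected mice than in any affected mouse, and 0 of its 5 tested genes passed in edgeR, with 0 at an unadjusted p under 0.05 and 0 in DESeq2.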
